A study of Mus musculus with 16 samples.

Results

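Cadherins and protocadherins were examined in 16 mouse RNA-Seq libraries from sympathetic ganglia and neuroblastoma tumors. The genes were all rows of the deposited tables whose symbol is Cdh with a number or starts with Pcdh, without Cdh5 and Cdh19, and with at least 10 counts in at least 2 libraries. Of 24411 genes in the tables, 94 symbols matched, 2 were left out by name and 88 reached this minimum. The 88 genes comprised 5 classical type I cadherins, 9 classical type II cadherins, 3 other cadherins, 59 clustered protocadherins (15 Pcdha, 22 Pcdhb and 22 Pcdhg genes) and 12 single protocadherins. Cdh7, Cdh9, Cdh16 and Cdh26 were below the minimum, with highest counts of 32, 9, 38 and 6. The members closest to it were Cdh17, with at least 10 counts in 5 libraries, and Pcdhb1, in 6. All 88 members also passed the expression filter of the statistical model.

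Celiac ganglia, a sympathetic ganglion of the abdomen, came from mice at 2 weeks of age. The groups were 4 ganglia that carried no MYCN transgene and whose Runx1t1 was wild-type (transgene-free wild-type ganglia), 3 transgene-free ganglia labelled Runx1t1 heterozygote, 3 ganglia of mice homozygous for the transgene with wild-type Runx1t1 (MYCN wild-type ganglia), 2 MYCN homozygous ganglia labelled Runx1t1 heterozygote, and 4 tumors of MYCN homozygous mice with wild-type Runx1t1. In Th-MYCN mice the tyrosine hydroxylase promoter drives human MYCN in sympathoadrenal cells, and Runx1t1 encodes a transcriptional corepressor. The labels name neither the Runx1t1 allele, nor the age of the mice with tumors, nor whether ganglia of several mice were pooled. Tissue and cell composition changed together between ganglia and tumors, age may have, and these cannot be told apart. Sex was also unbalanced, since the Y-linked Ddx3y was expressed in 3 of 4 tumors and in 1 of 4 transgene-free wild-type, 1 of 3 transgene-free heterozygote-labelled, 1 of 3 MYCN wild-type and 0 of 2 MYCN heterozygote-labelled ganglia.

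Classical cadherins are calcium-dependent adhesion molecules whose cytoplasmic tails bind catenins and so link neighbouring cells to actin. Type I members such as N-cadherin (Cdh2) give strong adhesion, and type II members are used in neuronal sorting and target choice. The clustered protocadherins lie in 3 tandem arrays. Each Pcdha and Pcdhg isoform joins its own variable exon to constant exons shared by the array, whereas Pcdhb genes are single-exon genes. Neurons switch on a few of the alternate isoforms from individual promoters with the help of CTCF and cohesin, and the C-type isoforms are regulated differently. The single delta protocadherins, among them Pcdh7, Pcdh9, Pcdh10, Pcdh17 and Pcdh19, have restricted expression in the developing nervous system.

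Promoter sequences are given for 5 members called between tumors and transgene-free wild-type ganglia: Cdh8, Cdh10 and Pcdh7, which were lower in tumors in every fit without 1 library, and Cdh15 and Cdh22, whose higher calls were lost in 4 and 7 of 8 such fits. They are RefSeq sequences of build GRCm38.p6, from 250 bases before to 50 bases after the annotated start, 5′ to 3′ on the gene's strand. Capitals mark the hexamer CACGTG, the core E-box of MYC proteins, or CACCTG and its reverse complement CAGGTG, the core of Snai and Zeb repressor sites. The regions are chr8:99416422-99416721 (minus strand), chr15:18820079-18820378 (plus), chr5:57717831-57718130 (plus), chr8:122848124-122848423 (plus) and chr2:165234688-165234987 (minus).
Cdh8: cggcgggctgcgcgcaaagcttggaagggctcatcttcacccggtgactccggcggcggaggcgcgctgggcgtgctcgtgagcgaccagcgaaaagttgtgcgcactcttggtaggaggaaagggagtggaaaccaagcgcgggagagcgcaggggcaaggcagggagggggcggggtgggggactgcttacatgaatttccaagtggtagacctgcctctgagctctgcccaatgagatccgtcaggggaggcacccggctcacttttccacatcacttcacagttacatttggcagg
Cdh10: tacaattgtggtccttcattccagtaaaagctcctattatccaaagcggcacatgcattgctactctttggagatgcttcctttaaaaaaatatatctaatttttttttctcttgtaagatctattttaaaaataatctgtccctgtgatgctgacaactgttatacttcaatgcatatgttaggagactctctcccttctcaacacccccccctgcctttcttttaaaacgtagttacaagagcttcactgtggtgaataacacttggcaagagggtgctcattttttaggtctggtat
Pcdh7: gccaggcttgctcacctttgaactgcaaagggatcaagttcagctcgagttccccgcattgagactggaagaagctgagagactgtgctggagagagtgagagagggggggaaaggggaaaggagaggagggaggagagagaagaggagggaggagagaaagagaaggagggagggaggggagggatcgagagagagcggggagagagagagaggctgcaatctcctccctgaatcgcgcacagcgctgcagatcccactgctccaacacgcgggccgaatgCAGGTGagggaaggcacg
Cdh15: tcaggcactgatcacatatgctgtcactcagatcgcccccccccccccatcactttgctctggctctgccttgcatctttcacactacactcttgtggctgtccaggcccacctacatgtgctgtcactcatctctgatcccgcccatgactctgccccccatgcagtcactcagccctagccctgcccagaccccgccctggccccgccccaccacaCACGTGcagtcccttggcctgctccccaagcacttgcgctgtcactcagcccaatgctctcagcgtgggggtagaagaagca
Cdh22: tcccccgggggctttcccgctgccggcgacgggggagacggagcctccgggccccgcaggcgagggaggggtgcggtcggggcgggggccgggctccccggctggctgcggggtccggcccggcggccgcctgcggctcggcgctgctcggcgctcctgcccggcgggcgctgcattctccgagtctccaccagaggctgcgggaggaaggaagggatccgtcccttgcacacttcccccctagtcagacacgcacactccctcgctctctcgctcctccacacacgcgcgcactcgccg

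Member promoters on chromosome 18, which holds the clustered genes, were left out, a filter not applied to all mouse promoters. CACGTG was present in 1 of the 20 promoters found for 19 members on other chromosomes, that of Cdh15, beginning 32 bases before the start. It was present in 7.15% of 32851 mouse promoters of the same length. CACCTG or CAGGTG was present in 2 of the 20, those of Pcdh7 and Pcdh15, against 20.2% of all. These are matches of letters in a short window and say nothing on binding. GC content ran from 37.7% in the Cdh10 promoter to 76.3% in that of Cdh22. For Cdh10, Pcdh7, Cdh15 and Cdh22 the RefSeq start lies inside the gene span that GENCODE gives.

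The libraries held 10692299 to 38618757 counts. Runx1t1, the targeted gene, was at 8.47 to 13.1 CPM (counts scaled to library size) in transgene-free wild-type ganglia and at 13.1 to 18.2 in those labelled heterozygote, so its RNA level did not separate these genotypes. It was at 23.4 to 243 CPM in MYCN wild-type ganglia, 25.3 and 49.9 in those labelled heterozygote and 123 to 227 in tumors, with a log2 fold change of 3.93 (adjusted p = 4.82e-05) between tumors and transgene-free wild-type ganglia. The sympathetic markers Th and Dbh were detected in every library. Transgene-free wild-type replicate 2 stood apart. Its summed lymphocyte marker level was 1023 TPM (transcript abundance per library, corrected for length), against 3.86 to 21.3 in the other libraries. Member calls and counts of called markers that changed without it are given both ways. Between tissues, the summed level of 16 sympathetic neuron markers was 2531 to 3731 TPM in tumors and 8289 to 25522 in ganglia, with 11 lower and 3 higher in tumors than in transgene-free wild-type ganglia. The sum of 11 satellite glia and Schwann cell markers was 43.4 to 52.8 TPM in tumors and 573 to 2593 in ganglia, with 10 lower, and Sox10 remained detected in each tumor. That of 8 fibroblast markers was 177 to 518 TPM against 895 to 7986, with all 8 lower. Dividing-cell markers were at 1270 to 1496 TPM in tumors and 61.7 to 1054 in ganglia, and epithelial markers at 45.0 to 129 against 3.84 to 36.4. Adrenal cortex markers were at 3.05 to 5.61 TPM against 6.48 to 100.1, with 5 of 6 lower, and 6 of 8 endothelial markers were lower. Myeloid markers were at 219 to 667 TPM in tumors and at 601 in transgene-free wild-type replicate 2, against 55.9 to 134 in the other 3 of that group. Over all ganglia but that library they were at 41.9 to 269 TPM, and MYCN wild-type replicate 1 (269) lay within the tumor range. In tumors 2 of 8 were higher, or 6 of 8 without transgene-free wild-type replicate 2. Without it, 7 of 8 fibroblast and 5 of 8 endothelial markers were lower, 3 epithelial markers and not 2 were higher, and 2 sympathetic markers and not 3 were higher. Of 6 lymphocyte markers, 1 was then higher and 0 lower, in place of 0 and 4. Of 5 skeletal muscle markers, 3 and not 2 were lower. These sums moved with every difference between tumors and ganglia described here, and their part in them was not tested. In whole tissue, fewer cells of a type and less RNA per cell cannot be told apart.

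On the TPM scale, which allows genes to be compared, the highest mean levels in the transgene-free wild-type ganglia were those of Pcdh10 (124 ± 58.7 TPM, SD, n = 4), Pcdh1 (111 ± 32.8), Cdh2 (90.2 ± 25.0), Pcdh7 (74.6 ± 20.1) and Cdh6 (68.3 ± 39.8), followed by Pcdhac2 and Pcdhgc3, and these neighbours in the order overlapped in their spread. In tumors the order changed. Pcdhgc3 stood first (101 ± 24.6 TPM, n = 4), followed by Cdh2 (71.5 ± 10.1), Pcdh1 (32.5 ± 4.00) and Pcdh10 (28.2 ± 12.2). Cdh6 dropped from position 5 to 74 among the 88 members, and Cdh8 from 11 to 83.

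Tumors were compared with transgene-free wild-type ganglia to ask how adhesion genes differ between neuroblastoma and the normal ganglion. Of the 88 members, 31 were lower and 11 higher in tumors at an adjusted p below 0.05. This is 35.2% lower and 12.5% higher, beside 30.7% lower and 27% higher among all 16665 genes tested. The median log2 fold change was −0.51 over members and −0.11 over all genes. Classes differed in how many members passed the test: 5 of 9 type II cadherins, 4 of 4 delta-1 protocadherins, 3 of 5 delta-2 protocadherins, 7 of 15 Pcdha and 11 of 22 Pcdhg genes were lower, whereas only 1 of 22 Pcdhb genes and none of the 5 type I cadherins were. Without transgene-free wild-type replicate 2, 33 members were lower and 10 higher, and 38 of the 42 calls were kept. The class counts then were 1 higher and 1 lower among other cadherins in place of none, and 2 higher and 2 lower in Pcdhb in place of 3 and 1. Of the other single protocadherins, 1 was higher in place of none. There was 1 higher type II cadherin in place of 2 and no higher type I cadherin in place of 1. The remaining counts were equal, though in Pcdhg Pcdhga8 (−0.94, adjusted p = 0.0082) passed and Pcdhga1 (−0.61, 0.0647) did not. Pcdhb11 (−0.87, 0.0447) was the Pcdhb gene gained. The count of higher members fell to 5 without transgene-free wild-type replicate 4 and to 7 without tumor replicate 1. It was also 7 with a term for sex or with only deeper libraries. On the TPM scale, which shifted the median of all genes by −0.39, it was 4. The shares of all genes called in these refits are not given here, so their counts say nothing about the members as a group.

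**Figure D1:**
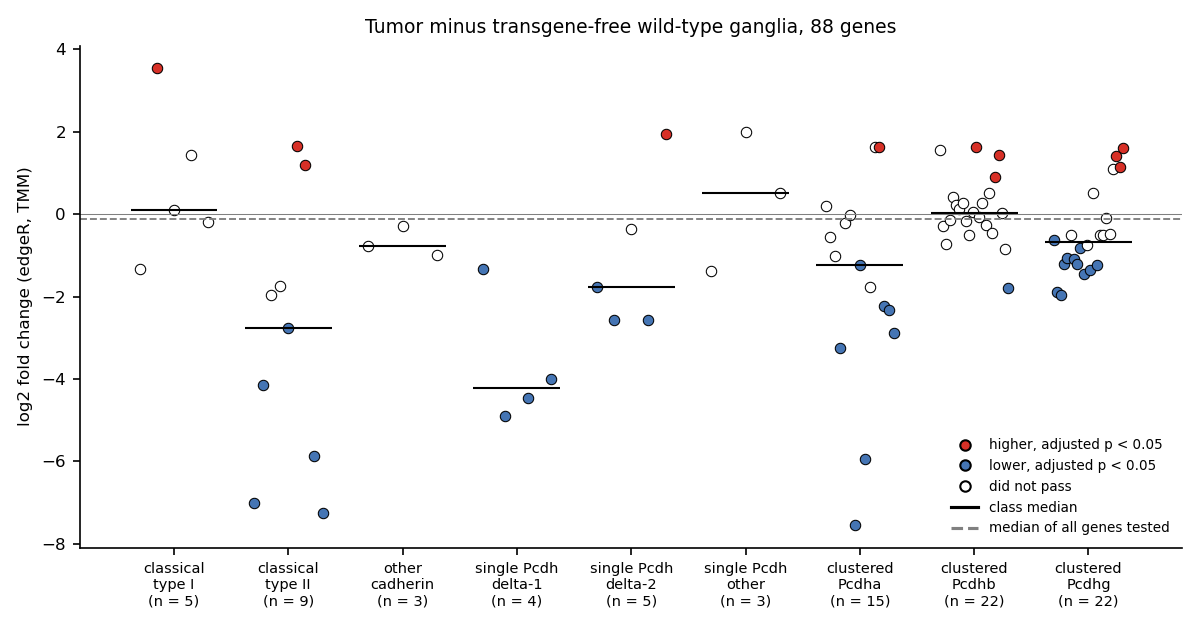
Log2 fold change (edgeR, TMM-normalized) of the 88 members in 4 tumors against 4 transgene-free wild-type ganglia, by class, where each point is a gene, red and blue points passed an adjusted p below 0.05, black bars are class medians and the dashed line is the median of all genes tested (−0.11). The 4 delta-1 protocadherins are all blue, while the 22 Pcdhb genes gather around their median of 0.04.

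Among type I cadherins, N-cadherin was abundant in both tissues. Cdh2 (chr18:16588877-16809246, minus strand, mm10) was at 199, 111, 201 and 165 CPM in the transgene-free wild-type ganglia and at 210.0, 157, 159 and 194 CPM in the tumors. The groups overlapped throughout, and the log2 fold change was 0.09 (95% interval −0.34 to 0.53, adjusted p = 0.71). It was −0.05 without transgene-free wild-type replicate 2. On the TPM scale, which shifted the median of all genes by −0.39, it was −0.29. E-cadherin (Cdh1, chr8:106603351-106670246), the epithelial type I cadherin, was at 16.3, 6.85, 8.08 and 7.95 CPM in ganglia and at 0.777, 4.38, 9.49 and 0.899 CPM in tumors. Tumor replicate 3 lay within the ganglia and the other 3 tumors below them. The log2 fold change was −1.33 ± 0.64 (SE, adjusted p = 0.0884), and it was −2.27 (adjusted p = 0.00546) without tumor replicate 3 and −1.73 (adjusted p = 0.046) with replicate number as a block. R-cadherin (Cdh4) was at 4.73 to 12 CPM in ganglia and 2.81 to 7.63 in tumors. P-cadherin (Cdh3) was at 0.320 to 2.72 CPM in ganglia and 0.964 to 6.60 in tumors, and neither passed the test.

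M-cadherin (Cdh15, chr8:122847966-122867397), known from muscle progenitors, was the type I member called higher in tumors than in transgene-free wild-type ganglia. It had 9, 0, 0 and 8 counts in the transgene-free wild-type ganglia and 147, 51, 19 and 107 in the tumors. Every tumor had more counts than any of these ganglia, although on the CPM scale tumor replicate 3 (0.678) fell just under ganglion replicate 1 (0.720). The log2 fold change was 3.54 ± 1.31 (adjusted p = 0.0319). The call was lost without transgene-free wild-type replicate 2 (3.21, adjusted p = 0.0577), 3 (3.08, 0.0634) or 4 (3.57, 0.0667) and without tumor replicate 1 (2.88, 0.0808). Summed skeletal muscle markers were at 3.63 to 17.6 TPM in tumors and 10.3 to 115 in these ganglia.

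Type II cadherins held some of the steepest falls. Cdh8 (chr8:99024471-99416471, minus strand), a cadherin of specific neuronal circuits, was at 27.8, 14.0, 32.1 and 19.1 CPM in the transgene-free wild-type ganglia. In tumors it was at 0, 0.0282, 0.0714 and 0.449 CPM, or 19 counts in all, so that its level was near zero in each. The log2 fold change was −7.27 ± 0.76 (adjusted p = 6.91e-06). From pooled counts, ganglia exceeded tumors 157-fold (exact binomial 95% interval 101 to 262). This interval, like those of all pooled ratios below, covers counting error only and not the spread between libraries. Cdh10 (chr15:18818947-19014236), a neuronal cadherin, fell likewise, from 3.73 to 7.12 CPM to between 0 and 0.113 CPM, with 5 counts over all tumors. Its log2 fold change was −7.02 ± 0.84 (adjusted p = 1.81e-05), with a pooled ratio of 148 (63.0 to 457).

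Cdh6 (K-cadherin, chr15:13028701-13173675, minus strand), a marker of migrating and boundary-forming cells in the embryonic nervous system, was at 101, 26.8, 45.7 and 104 CPM in the transgene-free wild-type ganglia and at 3.53, 0.226, 0.678 and 0.421 CPM in tumors. The groups were separated by a wide gap, and tumor replicate 1 was the highest tumor. The log2 fold change was −5.86 ± 0.76 (adjusted p = 3.12e-05). Cdh11 (OB-cadherin, chr8:102632095-102785642, minus strand), which mesenchymal and glial-lineage cells also express, was at 61.6 to 97.4 CPM in these ganglia and 1.36 to 9.52 CPM in tumors (−4.14 ± 0.50, adjusted p = 1.85e-05). The summed fibroblast and glial markers given above fell over the same libraries. Cdh20, at 2.86 to 8.96 CPM in ganglia and 0.535 to 1.26 in tumors, was the fifth type II cadherin to fall (−2.75 ± 0.55, adjusted p = 0.000823). All of these falls held with each library of the comparison left out in turn.

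The other type II cadherins moved the opposite way or did not pass. Cdh22 (chr2:165111507-165234853, minus strand), a brain cadherin, was at 10.6, 14.9, 16.5 and 15.7 CPM in the transgene-free wild-type ganglia and at 6.99, 38.8, 43.6 and 94.1 CPM in tumors. It was higher in 3 of the 4 tumors, with tumor replicate 1 below every ganglion of that group. The log2 fold change of 1.67 ± 0.66 (adjusted p = 0.0447) was fragile: it was 1.04 (adjusted p = 0.187) without tumor replicate 4, 1.74 (0.057) and 1.69 (0.0625) without tumor replicates 2 and 3, and 1.57 to 1.74 (0.0702 to 0.094) without any single one of the ganglia, and with replicate number as a block it was 1.60 (0.0887). Cdh24 was at 1.73 to 3.52 CPM in these ganglia and 3.90 to 7.80 CPM in tumors (1.19 ± 0.43, adjusted p = 0.0293), with no overlap between them, yet its call was lost in 3 of the 8 fits without 1 library (highest adjusted p 0.0794) and on the TPM scale. Cdh12 and Cdh18 had log2 fold changes of −1.97 and −1.75 that did not pass. Of the remaining cadherins, the GPI-anchored Cdh13 (T-cadherin) had a log2 fold change of −0.77 (adjusted p = 0.0533), Cdh17 (liver-intestine cadherin) −0.29 (0.878) and Cdh23, of the hair-cell tip link, −0.99 (0.354). Cdh17 was at 3.64 CPM in transgene-free wild-type replicate 2 and at most 0.0800 in the other 3 ganglia of the group. Without that library Cdh17 had a log2 fold change of 3.66 (adjusted p = 0.0436) and Cdh13 one of −0.86 (0.0407), so that both passed.

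**Figure D2:**
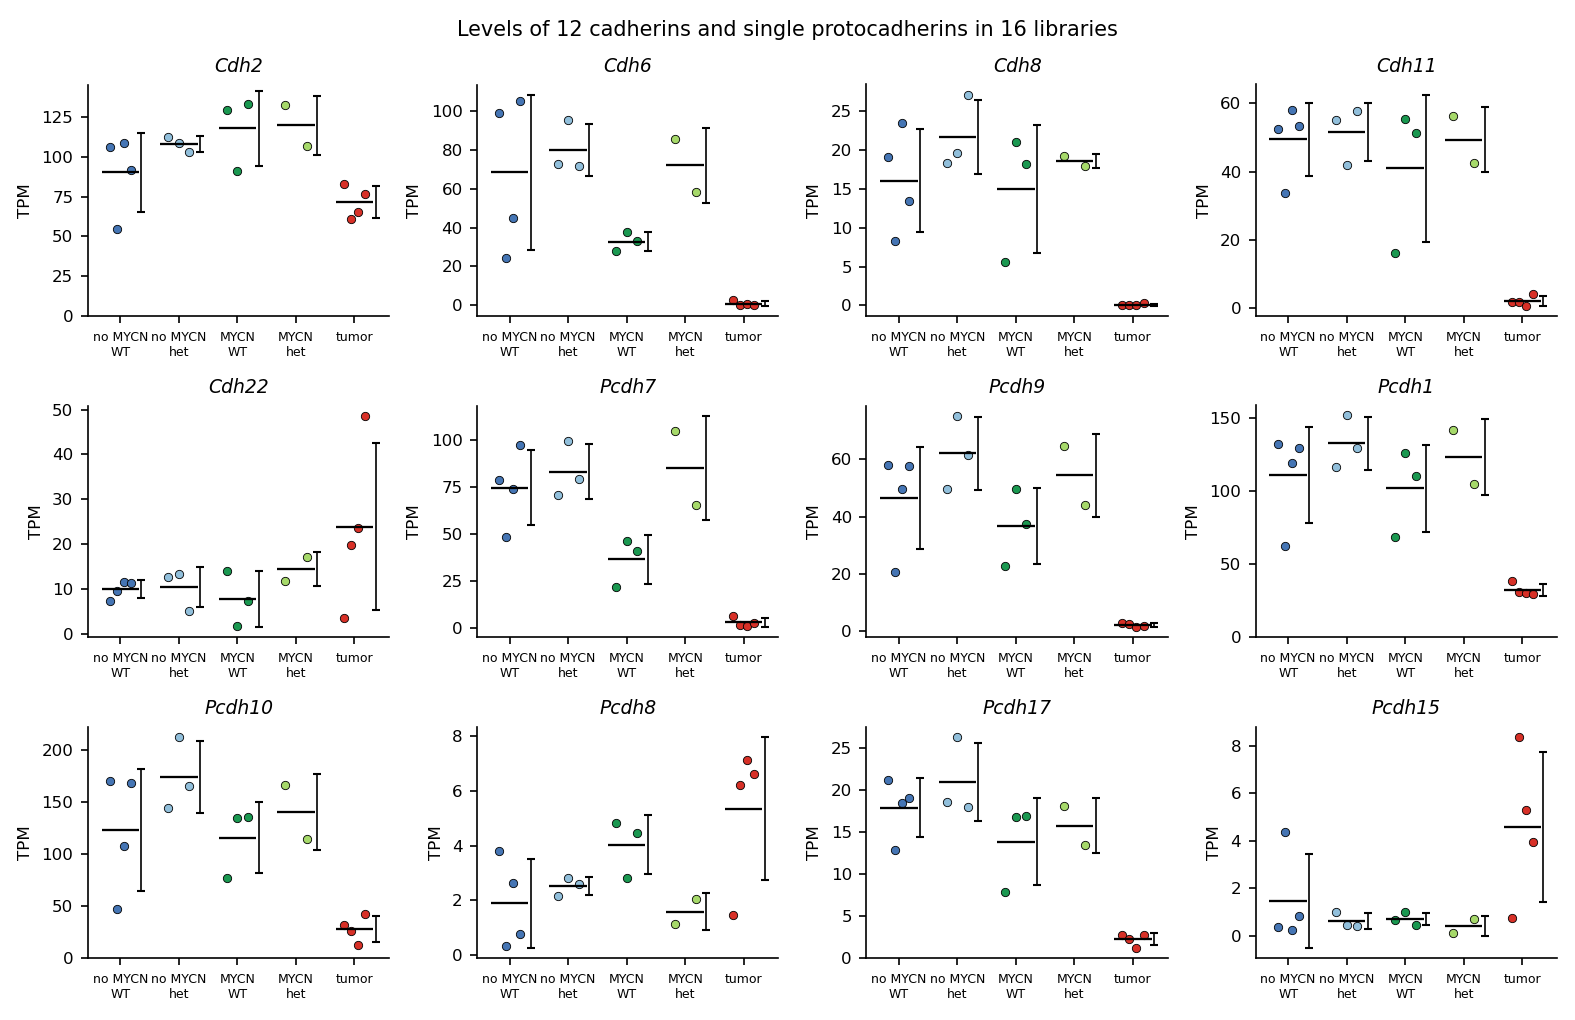
TPM of 12 cadherins and single protocadherins in the 16 libraries, by group (no MYCN is transgene-free, WT and het are the labelled Runx1t1 genotypes), with points for libraries, a bar for the group mean and whiskers for the SD. Cdh2 stays between 54.5 and 133 TPM everywhere, Cdh8 is at most 0.25 TPM in tumors, and Cdh22 and Pcdh15 spread widely among tumors.

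Single protocadherins were mostly lower in tumors, and all 4 delta-1 members fell. Pcdh7 (chr5:57717967-58133230), an adhesion molecule that also binds the phosphatase PP1 and the histone chaperone SET, was at 236, 152, 213 and 278 CPM in the transgene-free wild-type ganglia and at 21.7, 5.73, 3.36 and 9.43 CPM in tumors. No tumor came near the ganglia, and the log2 fold change was −4.45 ± 0.49 (adjusted p = 1.08e-05). Pcdh9 (chr14:93013410-93890679, minus strand), a neuronal adhesion gene, was at 141, 53.8, 120 and 136 CPM in ganglia and at 9.63, 8.25, 4.75 and 5.36 in tumors. With −4.01 ± 0.35 (adjusted p = 1.94e-06) it had the smallest adjusted p of all 88 members. Pcdh11x (chrX:120290259-120910619), the X-linked delta-1 gene, had 338 counts in these 4 ganglia and 15 in the 4 tumors, a pooled ratio of 32.6 (95% interval 19.5 to 58.9, counting error only). Its log2 fold change was −4.89 ± 0.91 (adjusted p = 0.000438), and −4.53 (0.002) with a term for sex. Pcdh1 (chr18:38185914-38212053, minus strand) fell less, from 105 to 205 CPM to between 61.6 and 80.8 CPM (−1.34 ± 0.21, adjusted p = 0.000131). By mean TPM it was at position 2 among the members in these ganglia and 3 in tumors.

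Of the 5 delta-2 protocadherins, several of which bind the actin-regulating WAVE complex, Pcdh10, Pcdh17 and Pcdh19 fell. Pcdh10 (chr3:45378398-45435623), also known as OL-protocadherin, was at 336, 105, 213 and 324 CPM in the transgene-free wild-type ganglia and at 81.0, 69.1, 30.5 and 108 CPM in tumors. The only overlap was between ganglion replicate 2 (105) and tumor replicate 4 (108), and the log2 fold change was −1.76 ± 0.38 (adjusted p = 0.0015). Pcdh17 (chr14:84443563-84539002) was at 55.0 to 83.6 CPM in these ganglia and 6.46 to 14.6 in tumors (−2.56 ± 0.28, adjusted p = 9.62e-06). Pcdh19 (chrX:133582860-133688987, minus strand), the gene of an X-linked epilepsy, was at 40.1 to 69.6 CPM in ganglia and at 27.1, 2.57, 3.82 and 1.60 CPM in tumors. Tumor replicate 1 held far more than the other tumors and was still below every ganglion of the group (−2.56 ± 0.69, adjusted p = 0.00605, or −2.98 and 0.0081 with a term for sex).

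Pcdh8 (chr14:79766775-79771312, minus strand), an activity-regulated protocadherin that drives internalization of N-cadherin, was the delta-2 member that rose. It was at 6.08, 0.520, 3.92 and 1.15 CPM in the transgene-free wild-type ganglia and at 2.95, 13.3, 14.8 and 13.6 CPM in tumors. Tumor replicates 2, 3 and 4 lay above all of these ganglia and replicate 1 among them. The log2 fold change was 1.94 ± 0.65 (adjusted p = 0.0199), and 1.67 (adjusted p = 0.0544) without transgene-free wild-type replicate 4. Pcdh15, a component of the tip link of hair cells, was at 1.2, 16.5, 0.600 and 2.27 CPM in ganglia and at 3.03, 36.9, 23.0 and 18.1 CPM in tumors (2.00 ± 0.92, adjusted p = 0.0765). The high ganglion value was that of replicate 2, the library with lymphocyte markers, and without it the log2 fold change was 3.89 (adjusted p = 0.000992). With replicate number as a block it was 2.76 (adjusted p = 0.00641). Pcdh12, an endothelial protocadherin (−1.38, adjusted p = 0.125), Pcdh18 (−0.35, 0.672) and Pcdh20 (0.51, 0.57) did not pass.

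The clustered genes lie together on chromosome 18 of mm10, with the Pcdha array at 36930184 to 37187661, Pcdhb at 37264938 to 37524479 and Pcdhg at 37661793 to 37841873, and all 56 of them with a single annotated position overlap another gene on the same strand. Reads from constant exons and near-identical variable exons were shared out between isoforms by the quantification, so the levels of individual isoforms are uncertain. Summed over its 15 genes, the Pcdha array was at 198, 57.5, 123 and 180 TPM in the transgene-free wild-type ganglia and at 60.4, 20.8, 26.2 and 30.9 TPM in tumors. The other ganglia held 111 to 217 TPM, so tumor replicate 1 exceeded only ganglion replicate 2 of the first group. The difference of the mean log2 sums was −1.99. Pcdhb summed to 49.9 to 122 TPM in ganglia and to 118, 50.6, 65.5 and 54.7 TPM in tumors (difference of mean log2 sums −0.31 against transgene-free wild-type ganglia, 0.06 on normalized counts). Pcdhg summed to 133 to 240.1 TPM in ganglia and to 167, 162, 146 and 196 in tumors, with a difference of −0.10 that became 0.32 on normalized counts. Sums over an array are descriptions and were not tested.

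**Figure D3:**
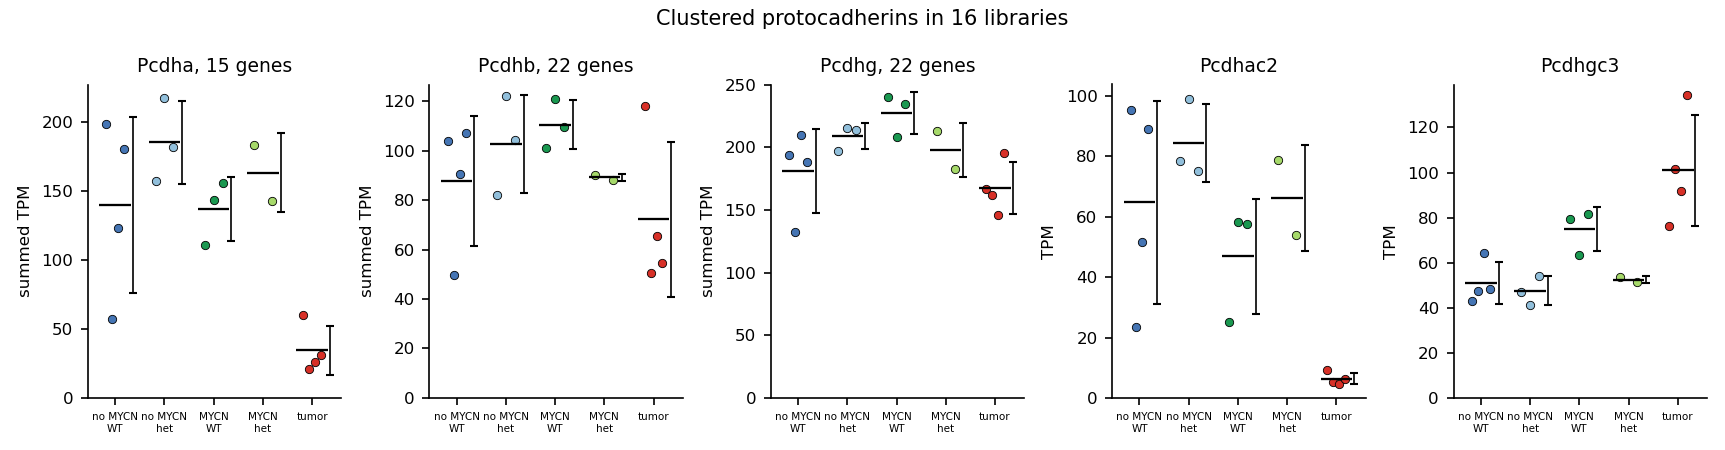
Summed TPM of the 3 protocadherin arrays and TPM of Pcdhac2 and Pcdhgc3 in the 16 libraries by group, with points for libraries, bars for means and whiskers for the SD. The Pcdha sum and Pcdhac2 are low in the 4 tumors, the Pcdhb and Pcdhg sums overlap between tumors and ganglia, and Pcdhgc3 has its highest group mean in tumors, where replicate 1 (76.1 TPM) lies below 2 MYCN wild-type ganglia (79.2 and 81.8).

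Within the Pcdha array the fall was carried by the C-type isoforms and by part of the alternate ones. Pcdhac2 (chr18:37143503-37187657), the most abundant Pcdha isoform and one that serotonergic neurons use for axon spacing, was at 209.6, 55.9, 112 and 189 CPM in the transgene-free wild-type ganglia. Tumors were at 27.4, 16.4, 13.5 and 18.9 CPM, below all of them, and the log2 fold change was −2.89 ± 0.39 (adjusted p = 3.82e-05). It made up 45.0% ± 4.29 (SD, n = 4) of the Pcdha sum in these ganglia and 20.0% ± 4.59 (n = 4) in tumors. MYCN wild-type replicate 1, at 22.6%, lay within the tumor range of 15.3% to 26.1%, while replicates 3 and 4 of that group were at 40.6% and 36.9%. Pcdhac1 (−2.34), Pcdha12 (−3.25), Pcdha9 (−2.22), Pcdha5 (−1.24), Pcdha4 and Pcdha6 also fell, although the call of Pcdha5 was lost in 5 of 8 fits without 1 library. Pcdha4 had 246, 67, 430 and 293 counts in these ganglia and 0, 0, 0 and 8 in tumors, a pooled ratio of 187 (95% interval 94.7 to 435). Pcdha6 had 178, 0, 26 and 256 counts in ganglia and 6, 0, 4 and 0 in tumors. Ganglion replicate 2 was thus at 0 for Pcdha6 like 2 of the tumors, and the pooled ratio of 66.6 (35.9 to 140.0) does not hold for each ganglion.

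Other alternate Pcdha isoforms were as high in some tumors as in ganglia. Pcdha8 was the member of the array that passed upward, at 1.44 to 3.17 CPM in the transgene-free wild-type ganglia and at 6.72, 1.78, 12.4 and 3.00 CPM in tumors. Its log2 fold change of 1.64 ± 0.54 (adjusted p = 0.0191) was 0.99 (adjusted p = 0.0982) without tumor replicate 3 and 1.54 (0.0501) without transgene-free wild-type replicate 4, and it was lost on the TPM scale. Pcdha3 was at 5.81 to 19.9 CPM in ganglia and at 39.9, 3.79, 3.93 and 2.39 CPM in tumors, so that the group means hardly differed (−0.01) while tumor replicate 1 was far from the rest. The 4 tumors each had a different leading gene among the 13 alternate isoforms: Pcdha3 in replicate 1 (28.0% of their summed TPM), Pcdha2 in replicate 2 (28.9%), Pcdha11 in replicate 3 (28.1%) and Pcdha7-g in replicate 4 (26.7%). In the 12 ganglia the leading isoform took 12.8% to 22.5% (median 18.4%), and the 3 leading isoforms together 33.9% to 45.8%, against 52.3% to 63.3% in tumors. The ranges did not overlap. Shares from few counts are less precise. The whole array held 2021 to 4385 counts in tumors and 1552 to 15985 in ganglia, so low totals occurred in both tissues.

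**Figure D4:**
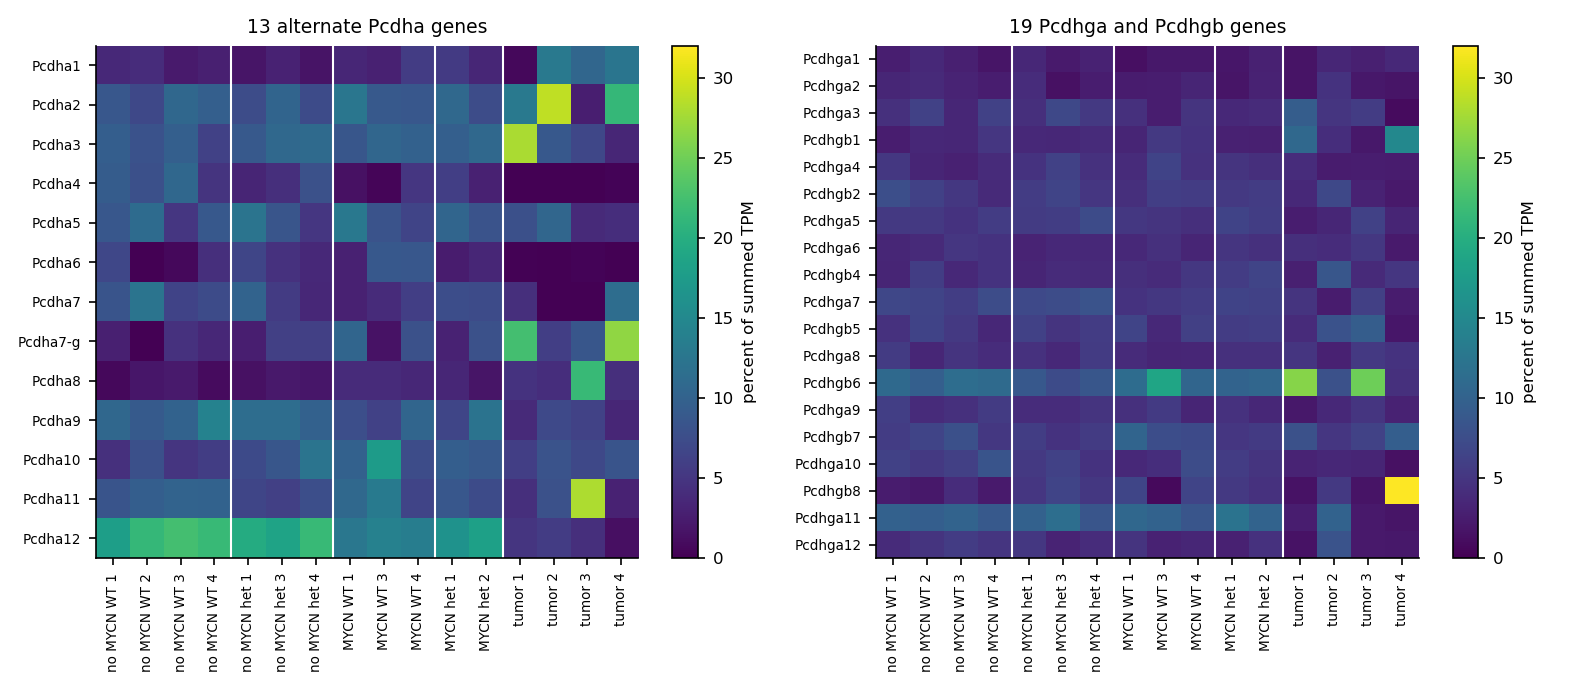
Share of each gene in the summed TPM of the 13 alternate Pcdha genes (left) and the 19 Pcdhga and Pcdhgb genes (right), in percent by color, with libraries as columns and groups divided by white lines. Ganglia look alike, with Pcdha12 the brightest Pcdha row in most, whereas each tumor has its own brightest Pcdha gene.

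Few Pcdhb genes passed. Of 22, Pcdhb2, Pcdhb5 and Pcdhb6 were higher, Pcdhb9 was lower, and 18 did not pass, with a median log2 fold change of 0.04. Pcdhb2 was at 3.84, 0.954, 4.94 and 4.31 CPM in the transgene-free wild-type ganglia and at 18.3, 5.79, 8.78 and 10.8 CPM in tumors. All tumors lay above all of these ganglia (1.62 ± 0.45, adjusted p = 0.00723), a call that held with each library left out. Pcdhb9 was at 3.47 to 12.6 CPM in ganglia and at 1.15 to 3.38 CPM in tumors (−1.78 ± 0.54, adjusted p = 0.0126). Pcdhb6, the leading Pcdhb gene in 3 of 4 tumors by TPM, was at 1.73 to 5.96 CPM in ganglia and 4.80 to 20.2 in tumors (1.43 ± 0.51, adjusted p = 0.0264), and lost its call in 3 of 8 fits without 1 library, that without transgene-free wild-type replicate 2 included. On the TPM scale the calls of Pcdhb5 and Pcdhb6 were lost. The abundant Pcdhb17 (−0.17) and Pcdhb20 (−0.06) had adjusted p of 0.673 and 0.862.

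The Pcdhg array divided along isoform type, a split drawn after the values were seen. Of the 19 Pcdhga and Pcdhgb genes, 11 fell and none rose (median −0.82), beside 30.7% lower and 27% higher among all genes, and all 3 Pcdhgc genes rose (median 1.41). The 19 alternate genes summed to 145, 81.5, 140 and 134 TPM in the transgene-free wild-type ganglia, 122 to 169 in the other ganglia and 74.4, 52.1, 48.1 and 53.5 TPM in tumors. Every tumor was thus below every ganglion in TPM. In normalized CPM the tumors were at 187, 134, 116 and 135 and the ganglia at 164 to 312, so that tumor replicate 1 lay above transgene-free wild-type replicate 2. Pcdhga11, the fall of largest size, was at 16 to 27.3 CPM in these ganglia and at 4.89, 13.7, 2.64 and 2.47 CPM in tumors (−1.96 ± 0.46, adjusted p = 0.0024). Pcdhga10 (−1.88), Pcdhga7 (−1.46), Pcdhga9 (−1.35) and Pcdhga5 (−1.2) were also lower without overlap. The calls of Pcdhga1, Pcdhga12, Pcdhga6, Pcdhga2 and Pcdhga4 were lost in 6, 4, 4, 3 and 3 of 8 fits without 1 library. With replicate number as a block, Pcdhga1 lost its call (−0.63, adjusted p = 0.0769) and Pcdhga8 gained one (−0.72, 0.0248). Pcdhgb6, an abundant alternate gene in ganglia, was at 16.2 to 29.8 CPM in the transgene-free wild-type group and at 49.7, 10.7, 29.4 and 6.09 CPM in tumors (−0.10, adjusted p = 0.865), and tumor replicate 4 instead led with Pcdhgb8, at 31.9% of the alternate sum.

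Pcdhgc3 (chr18:37806364-37841873), a C-type isoform that promotes dendrite growth and binds axin1 in the Wnt pathway, was the most abundant clustered gene of the tumors. It was at 81.3, 96.9, 121 and 88.4 CPM in the transgene-free wild-type ganglia and at 194, 265, 225 and 345 CPM in tumors. The groups were well apart, with a log2 fold change of 1.41 ± 0.19 (adjusted p = 3.97e-05), and the call held with each library left out and on the TPM scale. It made up 28.6% ± 5.85 of the Pcdhg sum in these ganglia and 60.0% ± 9.99 in tumors (SD, n = 4 each). Pcdhgc4, which neurons need for survival in development, was at 6.59 to 9.91 CPM in ganglia and 11.9 to 31 in tumors (1.16 ± 0.33, adjusted p = 0.00874). Pcdhgc5, which binds the GABA-A receptor, was at 1.76 to 2.84 CPM and 4.03 to 13 CPM (1.62 ± 0.50, adjusted p = 0.0135). The calls of Pcdhgc4 and Pcdhgc5 were lost on the TPM scale, and that of Pcdhgc5 also without tumor replicate 1 (adjusted p = 0.0575).

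**Figure D5:**
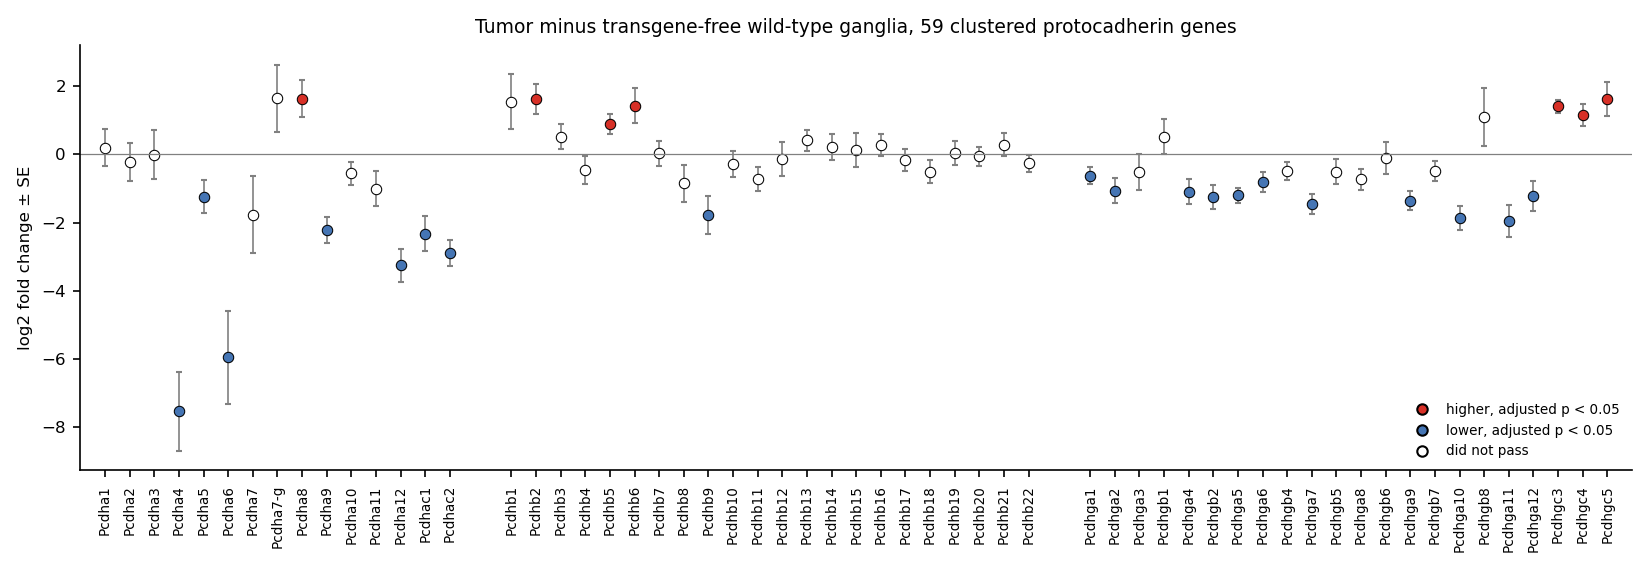
Log2 fold change ± SE of the 59 clustered protocadherin genes, tumors against transgene-free wild-type ganglia, by gene number in Pcdha and Pcdhb and in chromosome order in Pcdhg. Blue points crowd the Pcdha array and the Pcdhga and Pcdhgb genes, most Pcdhb points are open and near 0, and the 3 red points at the right end are Pcdhgc3, Pcdhgc4 and Pcdhgc5.

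Spread among tumors was itself uneven over the classes. The median SD of log2 CPM among the 4 tumors was 0.99 for Pcdha genes, 0.60 for Pcdhg, 0.53 for Pcdhb and 0.37 for delta-1 protocadherins, beside 0.30 over all genes tested. It was 0.97 for type I cadherins and 0.80 for delta-2 protocadherins. The transgene-free wild-type ganglia had 0.58 and 0.78 for these 2 classes, or 0.57 and 0.39 without their replicate 2. In the transgene-free wild-type ganglia, Pcdha, Pcdhg, Pcdhb and delta-1 genes had 0.63, 0.35, 0.51 and 0.55, beside 0.40 over all genes. Without replicate 2 these values were 0.42, 0.28, 0.29 and 0.16, beside 0.26, so that the order of tumors and ganglia in delta-1 spread turned with that library. Low counts raise such an SD, and no test was made.

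Tumors were then compared with MYCN wild-type ganglia, which carry the same transgene and Runx1t1 genotype. The tumor libraries are those of the previous comparison. Here 34 members (38.6%) were lower and 3 (3.41%) higher, beside 20.5% lower and 14% higher among all genes tested. Cdh8 was at 8.62, 29.3 and 25.9 CPM in the 3 MYCN wild-type ganglia (−7.14 ± 0.77, adjusted p = 2.22e-05), Cdh10 at 1.47, 11.7 and 5.63 (−7.18 ± 0.86, adjusted p = 4.9e-05) and Cdh6 at 32.1, 38.1 and 33.1 (−4.86 ± 0.74, adjusted p = 0.000329). The 4 delta-1 protocadherins fell again, with −3.41 for Pcdh7, −3.70 for Pcdh9, −5.20 for Pcdh11x and −1.25 for Pcdh1. In the arrays, 8 of 15 Pcdha, 2 of 22 Pcdhb and 11 of 22 Pcdhg genes fell, among them Pcdha4 (−6.11) and Pcdha6 (−7.10). Cdh2 had −0.35 (95% interval −0.81 to 0.12, adjusted p = 0.221) and Cdh1 −1.56 (adjusted p = 0.0892).

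The 3 members higher in tumors than in MYCN wild-type ganglia were Pcdhgc3, Pcdh15 and Pcdhb1. Pcdhb1 had 1, 3 and 0 counts in these ganglia and 13, 12, 11 and 19 in tumors (2.73, adjusted p = 0.0432). With replicate number as a block it lost its call (3.00, adjusted p = 0.06). Pcdhgc3 was at 170, 119 and 151 CPM in these ganglia, under all tumors (0.81 ± 0.20, adjusted p = 0.0078), but the call was lost on the TPM scale (0.41, adjusted p = 0.102). Pcdh15 was at 1.65, 2.56 and 1.65 CPM (3.37 ± 1.09, adjusted p = 0.0289). It lost its call without MYCN wild-type replicate 1 (3.27, adjusted p = 0.068), 3 (3.61, 0.0785) or 4 (3.25, 0.0973) and without tumor replicate 2 (2.91, 0.0653). The count of higher members was 1 in the fits without MYCN wild-type replicate 3 or 4 or without tumor replicate 2. The shares of all genes called in those fits are not given here. Against the 2 MYCN ganglia labelled heterozygote, 29 members (33%) were lower and 4 (4.55%) higher, beside 23.5% and 22% of all genes. Cdh8 (−7.47), Pcdha4 (−7.01), Cdh10 (−6.69), Cdh6 (−5.89) and Pcdha6 (−5.88) had the largest falls, and Pcdhgc3 (1.44), Pcdh15 (4.16), Pcdhb5 (1.23) and Cdh3 (4.61) were higher. Leaving out 1 of these 2 ganglia left a lone sample, assumed to vary like the other groups, so only effect sizes are given. Without replicate 1, Cdh3 (4.15), Pcdh15 (3.46) and Pcdhb5 (1.19) lost their calls. Without replicate 2, Pcdh15 (5.57) and Pcdhb5 (1.27) did.

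Among ganglia, no member passed the adjusted threshold in edgeR for the transgene or for the Runx1t1 label. Between MYCN and transgene-free wild-type ganglia this stood beside 0.834% higher and 0.102% lower of all genes called. At an unadjusted p below 0.05 there were 8 members (9.09%), against 19.8% of all genes. DESeq2 called Pcdha10 (1.42, adjusted p = 0.00632), Pcdhgc4 (1.25, 0.0158), Pcdha8 (1.87, 0.0287) and Cdh15 (3.83, 0.0361) higher. The share of all genes that DESeq2 called is not given here. Pcdha10 was at 21.5 CPM on average in MYCN wild-type and 7.99 CPM in transgene-free wild-type ganglia, with no overlap (edgeR 1.43 ± 0.36, adjusted p = 0.0666). It averaged 18.9 CPM in transgene-free ganglia labelled heterozygote and 17.0 in MYCN ganglia labelled heterozygote, so that the transgene-free wild-type group stood lowest of the ganglia. Pcdhgc4 was at 30.3, 10.3 and 20.7 CPM against 6.59 to 9.91 (1.27 ± 0.35, adjusted p = 0.0874). Without MYCN wild-type replicate 3, edgeR called Pcdhgc3 (0.73, adjusted p = 0.0447), Pcdhgc4 (1.59, 0.00843) and Pcdhgc5 (1.72, 0.0405) higher. The share of all genes called in that fit is not given here, so these calls say nothing about the members as a group. Pcdh7 was at 72.6, 133 and 115 CPM against 152 to 278, again without overlap (−1.04 ± 0.47, adjusted p = 0.245). Dividing-cell marker sums differed between these 3 ganglia, at 1054, 110.0 and 566 TPM in replicates 1, 3 and 4, where Pcdhgc4 was at 30.3, 10.3 and 20.7 CPM. In the same order, sympathetic neuron markers summed to 8289, 15506 and 12846 TPM, glial markers to 573, 2420.0 and 1511 and fibroblast markers to 895, 3649.6 and 2979.5. Replicate 1 was lowest in each of these 3 sums and in Pcdh7, and their part in these values was not tested.

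The remaining contrasts among ganglia gave no called member in edgeR or DESeq2. Between MYCN and transgene-free ganglia labelled heterozygote, 2 members (2.27%) had an unadjusted p below 0.05, against 1.45% of all genes, and by adjusted p 0% of all genes were called in either direction. MYCN ganglia labelled heterozygote against MYCN wild-type ganglia gave 4 such members (4.55%), against 12.6% of all genes, while by adjusted p 0.012% of all genes were called higher and 0% lower. One of them was Pcdh7, at 297 and 187 CPM against 72.6 to 133 (1.18 ± 0.54, adjusted p = 0.394), while transgene-free ganglia were at 152 to 285. Another was Pcdhgc3, at 95.4 and 94.8 CPM against 119 to 170 (−0.63 ± 0.24, adjusted p = 0.358). Sympathetic neuron markers summed to 25521.5 and 20530.5 TPM in the heterozygote-labelled MYCN ganglia, against 8289 to 15506 in MYCN wild-type ganglia. Glial, fibroblast and dividing-cell sums overlapped between these groups. The part of these markers was not tested. Transgene-free ganglia labelled heterozygote against wild-type gave 5 members (5.68%) with an unadjusted p below 0.05, against 4.12% of all genes. By adjusted p 0% of all genes were called in either direction. The difference between the MYCN effects at both Runx1t1 labels was tested as an interaction. No gene passed there, and the lowest adjusted p of a member was 0.845. With groups of 2 to 4 libraries, small effects may have gone undetected.

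Partners of these proteins were counted from lists fixed for this purpose, again for tumors against transgene-free wild-type ganglia. Of 11 catenins and adapters tested, 8 were lower and 2 higher, the smallest p belonging to vinculin (Vcl, −2.12, adjusted p = 1.12e-05), which links cadherin complexes to actin, and to Arvcf (−1.84, adjusted p = 8.4e-05), a p120-family catenin. β-catenin (Ctnnb1) was one of the higher ones (0.50, adjusted p = 0.0112). Of 12 factors that act at the clustered loci, 10 were higher and none lower, led by Wiz (1.3, adjusted p = 1.72e-05) and the cohesin subunit Smc3 (1.43, adjusted p = 2e-05). Ctcf was at 133 CPM on average in tumors and 55.4 in these ganglia (1.26, adjusted p = 0.00176). The 13 WAVE complex genes and kinases gave 3 higher and 6 lower, with Ret (−3.09, adjusted p = 0.000537) and Wasf2 (−1.23, adjusted p = 0.00127) first. Cadherin repressors gave none higher and 2 lower of 6, Snai2 (−4.14, adjusted p = 0.000175) and Zeb2 (−1.26, adjusted p = 0.0134). Processing proteases gave 5 lower of 7, with Psen2 (−1.70, adjusted p = 6.74e-05) and Ncstn (−0.67, adjusted p = 0.000591) first, and larger cadherin-superfamily genes 3 higher and 5 lower of 14, with Clstn2 (−3.01, adjusted p = 5.74e-06) and Dchs1 (1.93, adjusted p = 7.86e-05). Without transgene-free wild-type replicate 2 all 12 locus factors were higher and the counts called in the other lists were equal. All genes tested were called lower in 30.7% and higher in 27% of cases in this contrast.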

How the data were processed

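Whole-tissue RNA-Seq was measured in 16 libraries of 5 groups taken from the sample labels. The authors aligned paired-end reads of stranded total RNA libraries to mm10 with STAR, used SAMtools, and deposited RSEM expected counts, not normalized, and TPM, scaled by RSEM within each library. The labels give polyA RNA as the molecule, whereas the protocol names a total RNA kit. Column headers give Runx1t1 as Hom or Het, and Hom was read as homozygous wild-type, since the sample labels hold only wild-type and heterozygote Runx1t1. Columns of no sample numbered 0. Whether counting used the strand is not given in the sources used here, and 19 of 29 members outside the arrays overlap a gene on the opposite strand.

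Expected counts were rounded, filtered by group, TMM-normalized and fitted over all 5 groups with edgeR 4.0.16 (R 4.3.3, quasi-likelihood test) after tests on simulated data. Benjamini-Hochberg adjustment covered all 16665 genes, with a threshold of 0.05. CPM values are TMM-normalized, and 95% intervals use the residual degrees of freedom. Depth was 10692299 to 38618757 counts per library. Nothing in the labels says that replicates came from separate animals, so p-values measure only the spread between these samples.

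Deviations of same-numbered samples correlated at 0.15 to 0.32 in all 4 pairs of tumors and transgene-free wild-type ganglia. In no other comparison did every pair exceed 0.1. However, the differently numbered ganglion replicate 4 and tumor replicate 1 reached 0.165. Over all groups the median was −0.014 for same-numbered and −0.021 for other pairs. No label pairs these samples, so a pairing is not established and the main tests are unpaired. A blocked value is given as an alternative where it changes a call. Alternatives were upper-quartile normalization, DESeq2 1.42.0, other filters, a replicate block, terms for depth and sex, only the groups compared, and leaving out each library. A fit of libraries over 20000000 counts and limma 3.58.1 on log2(TPM + 0.5) were chosen after seeing the data. Named members were the 3 with the highest mean TPM per class, up to 5 higher and 5 lower per comparison with the largest change (mean TPM at least 0.5 in the higher group), Cdh1 and Cdh2, and 2 genes per partner list with the smallest p. Others were named after their values were seen. Members and lists were chosen with earlier results of these data known. Coordinates are from GENCODE vM21 (GRCm38, mm10), where 85 of the 88 members had a single position.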

Additional observations from a re-analysis of the deposited data

Results flagged for a closer look

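In groups of 4 libraries, 13 of 76 tested values of 38 named members stood far from the other 3 libraries by Dixon's criterion. The criterion flags about 1 of 20 groups by chance where values are normally distributed, which CPM near 0 are not, so the count is not compared with chance. In tumor replicate 1, Pcdha3 was at 39.9 CPM against 2.39 to 3.93 in the other tumors, Pcdh19 at 27.1 against 1.60 to 3.82, Pcdhb20 at 14.4 against 7.64 to 8.64 and Cdh6 at 3.53 against 0.226 to 0.678, while Pcdh8 was lower, at 2.95 against 13.3 to 14.8. In tumor replicate 4, Cdh8 was at 0.449 CPM against 0 to 0.0714 and Pcdha4 at 0.225 against 0 in each of the others.

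In transgene-free wild-type ganglia, replicate 2, the library with lymphocyte markers, had Cdh4 at 12 CPM against 4.73 to 5.52, Cdh17 at 3.64 against 0.0353 to 0.0800 and Pcdh15 at 16.5 against 0.600 to 2.27. Cdh1 was at 16.3 CPM in replicate 1 against 6.85 to 8.08. Replicate 3 had Cdh3 at 2.72 against 0.320 to 0.561 and Pcdha8 at 3.17 against 1.44 to 1.54.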

How the results depend on the processing

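None of the 42, 37 and 33 members called between tumors and transgene-free wild-type, MYCN wild-type or MYCN heterozygote-labelled ganglia changed sign under any alternative. Against transgene-free wild-type ganglia the 11 higher members became 7 with a term for sex, with only the groups compared and with only libraries over 20000000 counts, 4 with limma on log2(TPM + 0.5), and 5 to 10 without 1 library. Against MYCN wild-type ganglia the 3 higher members became 5 in DESeq2, 1 with limma on TPM and 1 to 3 without 1 library. Against MYCN heterozygote-labelled ganglia the 4 became 1 to 5 without 1 library. Between MYCN and transgene-free wild-type ganglia the 0 higher members became 4 in DESeq2 and 0 to 3 without 1 library. The shares of all genes called in these fits are not given here. The difference of mean log2 sums of Pcdhg moved from −0.10 in TPM to 0.32 in normalized CPM. Cdh2 in tumors reversed from 0.09 to −0.053 without transgene-free wild-type replicate 2 (−0.053 to 0.19 over fits without 1 library) and to −0.0044 in deep libraries. It was −0.29 on TPM, a scale that shifted the median of all genes, as given below. Cdh1 between MYCN and transgene-free wild-type ganglia reversed from 0.22 to −0.23 without MYCN wild-type replicate 3 (−0.23 to 0.58). Against the TMM fit, the TPM scale shifted the median of all genes by −0.39, −0.36 and −0.49 in the 3 tumor contrasts and by 0.13 between the MYCN ganglia. The causes were not tested, apart from the scale shift and the fewer samples or genes. A replicate block kept 40 of 42, 34 of 37 and 32 of 33 calls in the 3 tumor contrasts, with 11, 2 and 4 members higher and 33, 35 and 30 lower. The shares of all genes called with the block are not given here. Against transgene-free wild-type ganglia the block lost Cdh22 (1.60, adjusted p = 0.0887) and Pcdhga1 (−0.63, 0.0769). It added Cdh1 (−1.73, 0.046), Pcdh15 (2.76, 0.00641), Pcdha11 (−1.20, 0.0395) and Pcdhga8 (−0.72, 0.0248), and it changed no other call of a member there. Low counts limit the precision of fold changes such as that of Cdh10, with 5 counts in tumor libraries of 27096032 to 38618757 counts.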
